A study of Mus musculus with 8 samples.

Results

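The 79 genes described here are the members of the Fbxl, Fbxo and Fbxw families among the 36333 genes measured by RNA sequencing in the ventral prostate of hSKP2-KI and WT mice. They were chosen by symbol alone, as every gene whose name starts with Fbxl, Fbxo or Fbxw and a number, which gives 18 Fbxl, 37 Fbxo and 24 Fbxw genes. Skp2, itself an F-box gene, is not among them. The mice were males at 12 months of age. Per the authors, male offspring came from heterozygous knock-in females mated to wild-type FVB/N males. The strain of the females is not given in the sources used here. The hSKP2-KI group (n = 4) carried a P2A and human SKP2 coding sequence in exon 1 of the endogenous probasin gene, whose promoter is active in prostate epithelium, and the WT group (n = 4) carried no insert. One library was made per mouse, and the labels do not say from which founder line the knock-in mice came.

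F-box proteins are the subunits that choose the substrate of SCF ubiquitin ligases. The F-box itself binds SKP1, which links the protein to the CUL1 scaffold and the RING protein RBX1, and the rest of the protein binds the target. Fbxl proteins do so through leucine-rich repeats, Fbxw proteins through WD40 repeats, and Fbxo proteins through other domains or none that is known. Most of them are thought to share SKP1 and CUL1 with SKP2.

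The deposited values are TPM, which sum to 1000000 in each sample, so the number of reads behind a value is unknown. The 3 most abundant genes held 40.4% to 45.8% of the TPM in WT and 32.1% to 34.3% in hSKP2-KI samples, which moves every other gene in the opposite direction. Levels are therefore given as scaled TPM, the TPM divided by a median-ratio factor per sample (0.835 to 0.988 in WT and 1.06 to 1.11 in hSKP2-KI). Fold changes are on the log2(scaled TPM + 1) scale, hSKP2-KI minus WT, which understates changes of low genes. Adjusted p-values are from limma with Benjamini-Hochberg adjustment over the 13080 genes whose TPM reached 1 in 4 or more samples, and 95% intervals are for each gene alone. Luminal epithelial markers (8 genes) summed to 2510 to 3068 scaled TPM in hSKP2-KI and 2507 to 2929 in WT samples. Of these 8 markers, 1 was called lower and 0 higher. Seminal vesicle markers (4 genes) summed to at most 0.717 scaled TPM. Fibroblast markers (9 genes) summed to 800.3 to 1359 in hSKP2-KI and 556 to 670.1 in WT samples, with 3 of 9 called higher. Smooth muscle markers (8 genes) summed to 2809 to 4261 and 2092 to 2744, with 5 of 8 called higher. Beside these marker counts, 7.32% of all tested genes were called higher and 3.79% lower.

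Most of the family was transcribed in the ventral prostate. Of the 79 members, 53 passed the filter and 26 did not, and 9 of the 26 were listed at 0 in all 8 samples. A listed 0 does not show absence, since 5 genes of the mitochondrial genome that all cells use, COX1 among them, were at 0 as well. Mean levels over both genotypes exceeded 20 scaled TPM for 14 members and lay between 5 and 20 for 28, and 11 members that passed the filter lay under 5. Fbxo32, which encodes atrogin-1, was the most abundant member in both genotypes, followed by Fbxo9 and Fbxo31 in WT and by Fbxo31 and Fbxo9 in hSKP2-KI prostates. Fbxo24, known mainly from testis, was the member below the filter that reached a TPM of 1 in any sample, with 1.04 scaled TPM in hSKP2-KI replicate 3 and 0.248 to 0.861 in the other samples.

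Set among these 79 genes, Skp2 stood 49th of 80 in WT and 4th of 80 in hSKP2-KI prostates. Its values were 2.41, 1.06, 1.86 and 2.39 scaled TPM in the WT samples and 40.8, 46.4, 34.2 and 54.4 in the hSKP2-KI samples, and the log2 fold change was 3.95 (adjusted p = 3.57e-06, standard error 0.18). Every hSKP2-KI sample was far above every WT sample, as their labels say. Human and mouse SKP2 transcripts cannot be told apart in this value, and how reads of the human sequence were assigned is not given in the sources used here. By its listed values Skp2 stood near Fbxw5 in hSKP2-KI prostates, below Fbxo32, Fbxo31 and Fbxo9. The level and rank of human and mouse SKP2 transcripts together may differ from those listed.

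**Figure D1:**
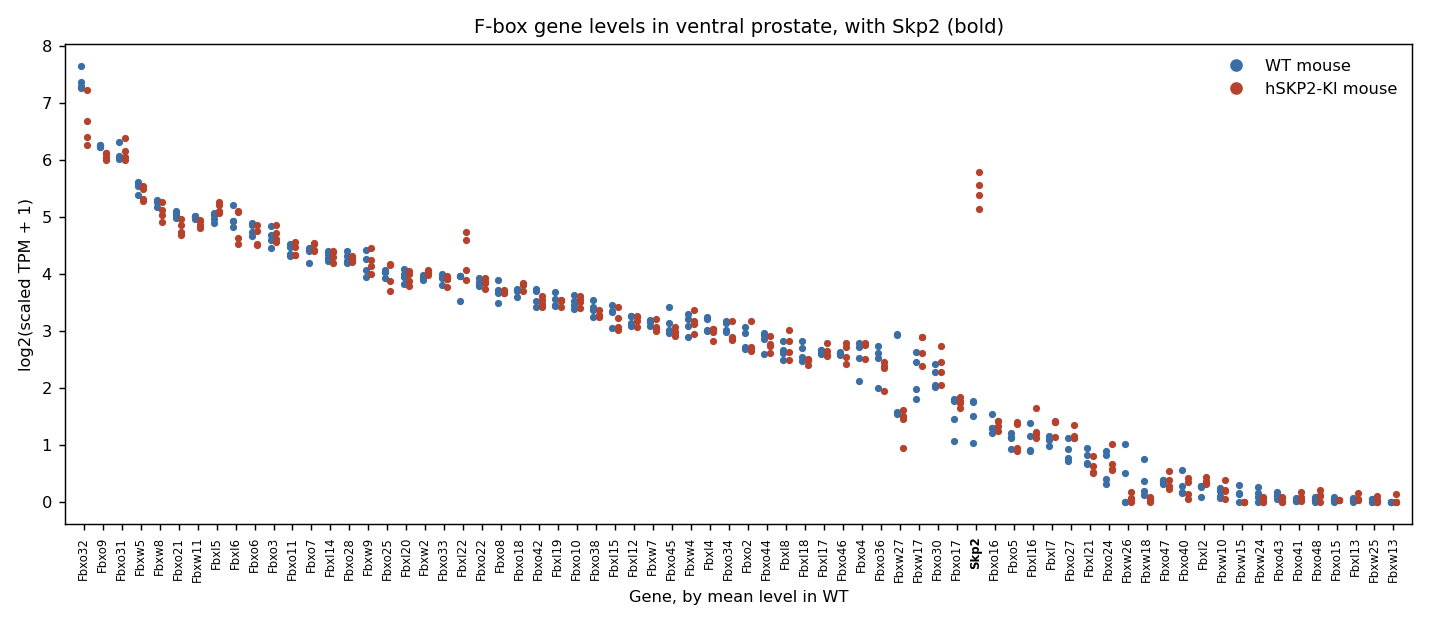
Level of F-box genes with a value above 0 in any sample, and of Skp2, as log2(scaled TPM + 1) in each of 4 WT (blue) and 4 hSKP2-KI (red) mice, ordered by the mean in WT. Skp2 moved from the 49th to the 4th place of 80, while the colours of most other genes lie over each other.

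The first question was whether transcripts of the other F-box genes differed between the genotypes. Of the 53 tested members, 1 was called lower and 0 higher with an adjusted p under 0.05 in limma, against 11.1% of all tested genes called in either direction, 7.32% higher and 3.79% lower. At an unadjusted p under 0.05, 4 members were higher (Fbxl22, Fbxw17, Fbxl5 and Fbxo27; 16.2% of all tested genes) and 5 lower (among them Fbxo32, Fbxo21, Fbxo9 and Fbxw27; 11.1% of all tested genes). The log2 fold changes ran from -0.86 for Fbxw27 to 0.47 for Fbxw17, with a median of -0.01, beside 0.00 for all tested genes. The median size of the change was 0.11, beside 0.14 for all tested genes. The 95% interval lay within 0.5 of 0 for 43 of the 53 members, beside 68.2% of all tested genes, and within 1 of 0 for 51, beside 93% of all tested genes. For these 51 members a change as large as 2-fold on this scale lay outside the interval, whereas Fbxo32 and Fbxw27 had intervals that reached it.

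**Figure D2:**
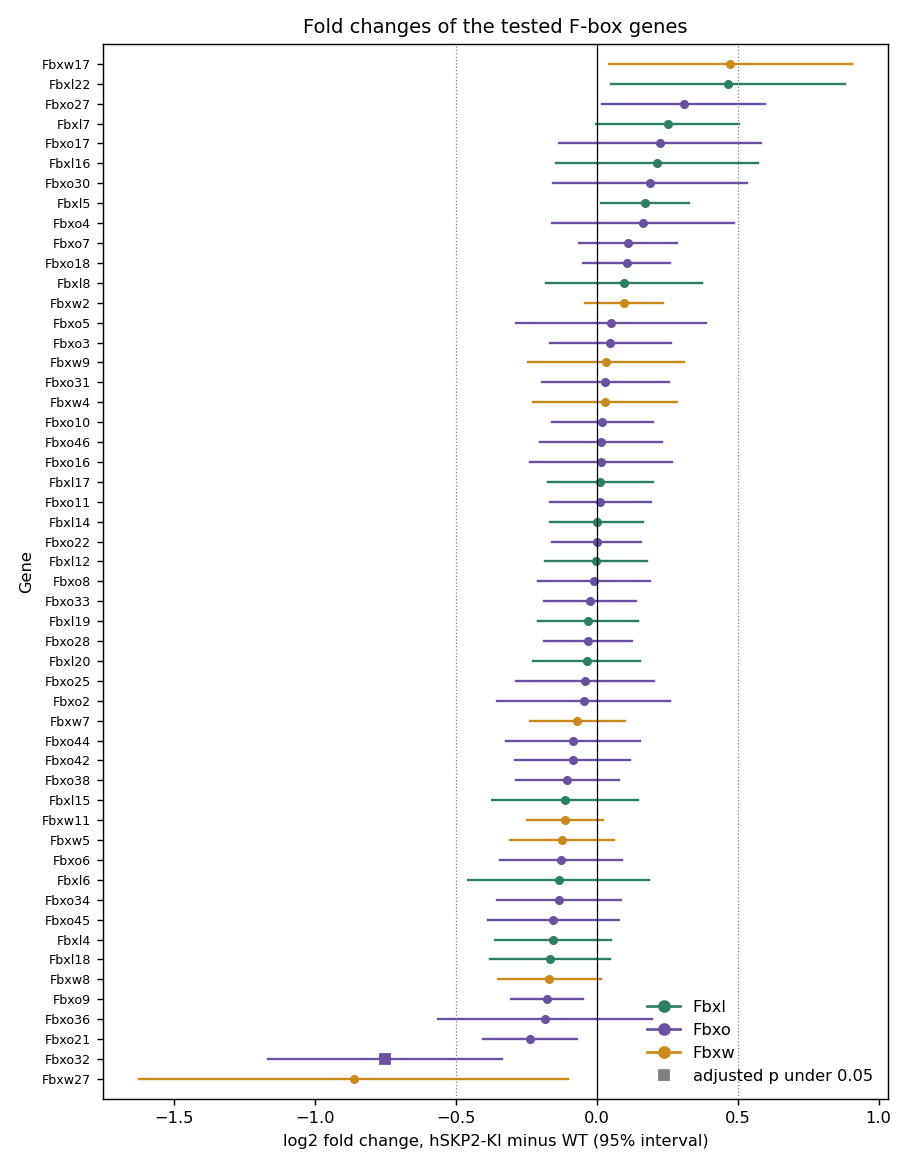
Log2 fold change (hSKP2-KI minus WT, on the log2(scaled TPM + 1) scale) of the tested members, less 1 that is not reported, with 95% intervals from limma, coloured by family, with dotted lines at -0.5 and 0.5. Fbxo32, drawn as a square, is the member with an adjusted p under 0.05, and most intervals lie between the dotted lines.

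By family, 0 or 1 gene was called in each of the 3, and a gene not called may still differ by a small amount. Beside these counts, 7.32% of all tested genes were called higher and 3.79% lower. At an unadjusted p under 0.05 in limma, 16.2% of all tested genes were higher and 11.1% lower. Of the Fbxl genes 15 of 18 were tested, with a median log2 fold change of 0.00 and 0 called, and 2 higher and 1 lower at an unadjusted p under 0.05. Of the Fbxo genes 29 of 37 were tested, with a median of -0.01 and 1 called lower, and 1 higher and 3 lower at an unadjusted p under 0.05. Of the Fbxw genes 9 of 24 were tested, with a median of -0.07 and 0 called, and 1 higher and 1 lower at an unadjusted p under 0.05. The genotypes did not overlap for 6 of the 53 members, where 18.9% of all tested genes had no overlap. Of these, 5 lay lower in all hSKP2-KI samples, among them Fbxo32, Fbxo9, Fbxo21 and Fbxw11, beside 7.93% of all tested genes, and Fbxw2 lay higher, beside 11% of all tested genes.

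Fbxo32 (Entrez 67731, chr15:58175879-58214892 in GRCm38.p6) was the member that fell. It encodes atrogin-1, an F-box protein known for its induction in wasting skeletal and cardiac muscle, where FOXO transcription factors drive it. Its values were 76.0, 149, 83.7 and 102 scaled TPM in hSKP2-KI replicates 1 to 4 and 200.1, 156, 153 and 165 in WT replicates 1 to 4. The hSKP2-KI samples lay below all WT samples, with replicate 2 close to the lowest WT value and the other 3 well under it. The means were 103 ± 32.6 (SD, n = 4) and 168 ± 21.7 (SD, n = 4), which on the log2 scale is a change of -0.75 (95% interval -1.17 to -0.34, standard error 0.19, adjusted p = 0.0313). The call was close to the threshold. It was lost with a replicate block (adjusted p = 0.0533), in the TPM as deposited (log2 fold change -0.50, adjusted p = 0.0533), without the filter on low values (adjusted p = 0.0784) and when any of hSKP2-KI replicates 1, 3 and 4 or WT replicates 1, 2 and 4 was left out (adjusted p from 0.0551 to 0.0814). Without hSKP2-KI replicate 2 the log2 fold change was -0.95 (adjusted p = 0.00614).

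Cell type markers are given here beside the lower level of Fbxo32. Among markers of skeletal muscle, smooth muscle, fibroblasts and endothelium, those called were higher in hSKP2-KI prostates, and the 1 luminal marker called was lower. Skeletal muscle markers (10 genes) summed to 274 to 482 scaled TPM in hSKP2-KI and 228 to 371 in WT samples. They showed no common direction, with log2 fold changes above 0 for 3 of the 6 tested and below 0 for 3 (median 0.09). Of these 6, 1 was called higher and 0 lower, beside 7.32% and 3.79% of all tested genes. The smooth muscle and fibroblast markers were higher as given above. Endothelial markers (5 genes) summed to 30.1 to 50.9 and 23.7 to 28.8, with 1 of 5 called higher, beside 7.32% of all tested genes. Basal, leukocyte, macrophage and nerve marker sums overlapped between the genotypes. Log2 fold changes were above 0 for all 4 leukocyte and all 5 macrophage markers (medians 0.45 and 0.50). They were also above 0 for 3 of 4 basal and 3 of 4 tested nerve markers. None of these was called in limma. Adipocyte markers (4 genes), 0 of which were called, summed to 58.6, 119, 90.8 and 512 scaled TPM in hSKP2-KI replicates 1 to 4 and to 383, 399.5, 81.2 and 386 in WT replicates 1 to 4. They were thus low in 3 of 4 hSKP2-KI and in 1 of 4 WT samples. The part of these cell types in the level of Fbxo32 was not tested. In bulk tissue, fewer cells that express a gene and less RNA of it per cell cannot be told apart. All 79 members together summed to 837 to 958 scaled TPM in hSKP2-KI and 952 to 1033 in WT samples. Without Fbxo32 these sums were 754 to 809 and 796 to 833. The genotypes overlapped in both sums.

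The other F-box genes of muscle showed no common direction. Fbxo40, a receptor of striated muscle, lay below the filter with at most 0.473 scaled TPM. Fbxo21 (Entrez 231670) had 25.7, 24.6, 28.2 and 30.1 scaled TPM in hSKP2-KI samples and 31.9, 30.7, 33.2 and 32.5 in WT samples. The groups did not overlap, although the log2 fold change of -0.24 (95% interval -0.40 to -0.07, adjusted p = 0.0709) missed the threshold. Fbxo30, which is induced in denervated muscle, had a log2 fold change of 0.19 (95% interval -0.16 to 0.53, adjusted p = 0.477).

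Fbxl22 (Entrez 74165, chr9:66508459-66514593 in GRCm38.p6), a receptor first described at the sarcomere of heart muscle, had 25.6, 23.1, 13.9 and 15.9 scaled TPM in the hSKP2-KI samples and 14.6, 10.5, 14.7 and 14.6 in the WT samples. Replicates 1 and 2 of hSKP2-KI stood above all WT samples, replicate 4 was slightly above them and replicate 3 lay among them. Its log2 fold change was 0.47 (95% interval 0.05 to 0.88, adjusted p = 0.136). In the TPM as deposited it was 0.71 (adjusted p = 0.0125). The summed smooth muscle markers were 3820, 4261, 2809 and 3086 scaled TPM in hSKP2-KI replicates 1 to 4, so that replicates 1 and 2 were also the highest there. The part of smooth muscle in the level of Fbxl22 was not tested.

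The promoter of Fbxl22 is shown because it was the member promoter that held a CArG box, the site of serum response factor in genes of muscle. The 250 bases before the start of transcription (RefSeq, GRCm38.p6, minus strand, chr9:66514594-66514843) are given with the CArG box in capitals. It lies 213 to 222 bases upstream of the start.
Fbxl22: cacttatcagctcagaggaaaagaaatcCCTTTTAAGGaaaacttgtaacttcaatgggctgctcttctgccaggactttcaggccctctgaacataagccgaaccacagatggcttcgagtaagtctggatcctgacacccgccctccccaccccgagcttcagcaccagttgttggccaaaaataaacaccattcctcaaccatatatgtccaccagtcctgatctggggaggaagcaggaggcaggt
The CArG box was found in 1 of 81 promoters of the 60 members with a listed promoter, and in 1.47% of all 32851 promoters of the same length. The CArG consensus searched, which allows A or T at each inner base, is symmetric, so that a search of one strand covers both. The match is a description of the letters and not evidence of binding. Fbxo32 and Fbxw27 had no entry.

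**Figure D3:**
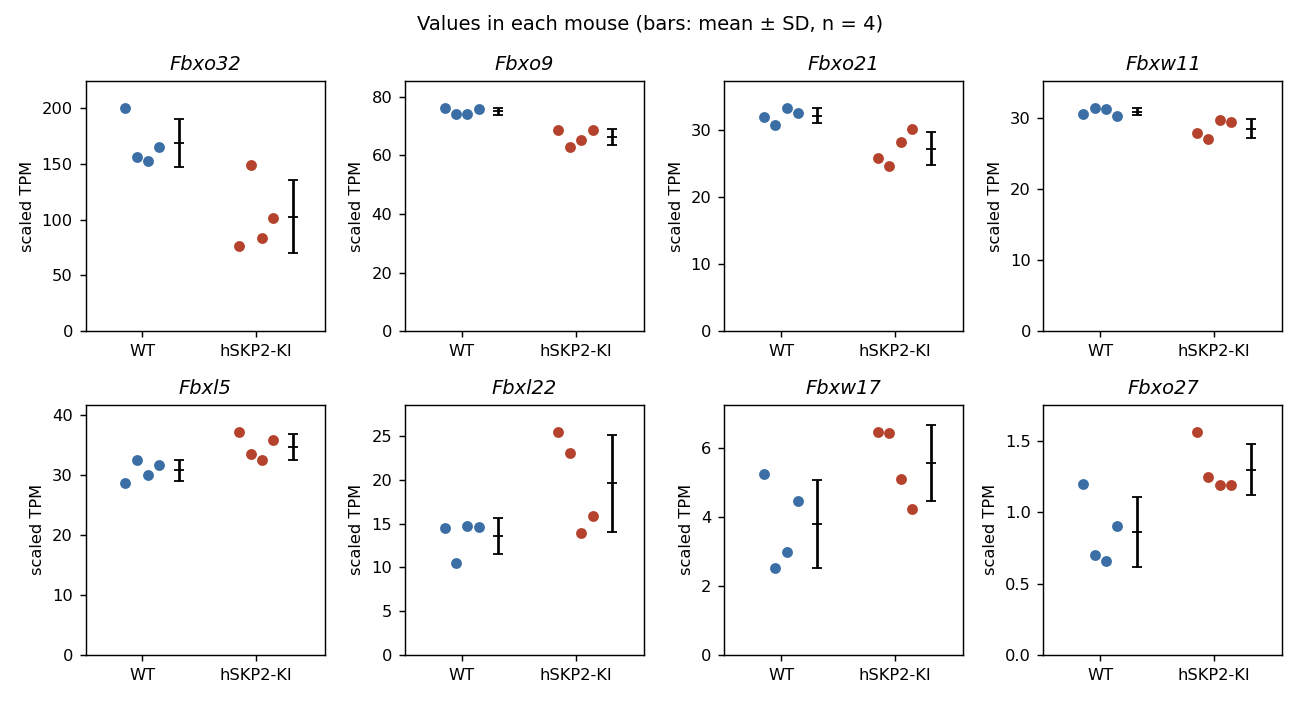
Scaled TPM of 8 members in each mouse, with the mean and SD of each genotype (n = 4) beside the points and axes that start at 0. Fbxo32, Fbxo9, Fbxo21 and Fbxw11 lie lower in all 4 hSKP2-KI samples, while the genotypes overlap for Fbxl5, Fbxl22, Fbxw17 and Fbxo27.

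None of the other abundant members named here was called in limma. Fbxo9, a receptor that acts on components of mTOR signalling, had 68.5, 62.7, 65.2 and 68.7 scaled TPM in hSKP2-KI samples and 76.2, 73.9, 74.2 and 75.7 in WT samples. The 2 groups were separate, but the difference was small, with a log2 fold change of -0.18 (95% interval -0.31 to -0.05, adjusted p = 0.0777). Fbxo31, which directs cyclin D1 to degradation after DNA damage, had 70.4 ± 8.99 scaled TPM in hSKP2-KI and 68.7 ± 7.02 in WT prostates (SD, n = 4 each), a log2 fold change of 0.03 (95% interval -0.20 to 0.26, adjusted p = 0.88). Fbxw5 had 41.6 ± 3.94 and 45.3 ± 3.04 scaled TPM (SD, n = 4 each), a log2 fold change of -0.12 (95% interval -0.31 to 0.06, adjusted p = 0.383). In the TPM as deposited, Fbxo9 and Fbxw5 had log2 fold changes above 0 (0.08 and 0.13).

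The 8 members listed for known roles in the cell cycle, a list that may be incomplete, were all tested. None was called in limma, beside 11.1% of all tested genes. A list of 8 genes is too short for 0 calls to stand apart from that share. In limma 0 of 8 also had an unadjusted p under 0.05, beside 16.2% of all tested genes higher and 11.1% lower. All 8 had 95% intervals within 0.5 of 0, beside 68.2% of all tested genes, and the median log2 fold change was 0.02. Fbxw7, the receptor for cyclin E, MYC and NOTCH and a tumour suppressor in many tissues, had 7.51 ± 0.538 scaled TPM in hSKP2-KI and 7.92 ± 0.271 in WT prostates (SD, n = 4 each), a log2 fold change of -0.07 (95% interval -0.24 to 0.10, adjusted p = 0.616). Fbxw8, which works with CUL7, had a log2 fold change of -0.17 (95% interval -0.35 to 0.01, adjusted p = 0.219). Fbxo7, which binds cyclin D and CDK6 complexes, stood at 0.11 (95% interval -0.06 to 0.29, adjusted p = 0.4), and Fbxo4, a receptor for cyclin D1, at 0.16 (95% interval -0.16 to 0.49, adjusted p = 0.516).

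Fbxo5 encodes EMI1, the inhibitor of the anaphase-promoting complex whose transcript is made in cycling cells. It had 1.58, 1.66, 0.867 and 0.921 scaled TPM in hSKP2-KI samples and 1.18, 0.917, 1.22 and 1.31 in WT samples, which overlap, with a log2 fold change of 0.05 (95% interval -0.28 to 0.39, adjusted p = 0.869). Levels this close to 1 TPM limit what can be seen of it. The 7 proliferation markers summed to 4.40 to 7.67 scaled TPM in hSKP2-KI and 5.54 to 8.04 in WT samples, which also overlap.

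The 5 members listed as sugar-binding receptors had log2 fold changes from -0.13 to 0.31. None was called in limma, beside 11.1% of all tested genes, and 1 was higher at an unadjusted p under 0.05, beside 16.2% of all tested genes. Fbxo27 had 1.57, 1.246, 1.19 and 1.19 scaled TPM in hSKP2-KI samples and 1.19, 0.701, 0.658 and 0.902 in WT samples. WT replicate 1 reached the level of the lowest hSKP2-KI samples. The log2 fold change was 0.31 (95% interval 0.02 to 0.60, adjusted p = 0.155), and 0.44 (adjusted p = 0.0245) in the TPM as deposited. Its paralog and neighbour on chromosome 7, Fbxo17, had a log2 fold change of 0.22 (95% interval -0.14 to 0.58, adjusted p = 0.414). Fbxo6, the most abundant of the 5 with 24.5 ± 3.14 scaled TPM in hSKP2-KI and 26.8 ± 2.02 in WT prostates (SD, n = 4 each), stood at -0.13 (95% interval -0.34 to 0.09, adjusted p = 0.441).

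The receptors listed for iron balance and mitochondria were Fbxl5 and Fbxl4, and neither was called in limma. Fbxl5 (Entrez 242960, chr5:43744618-43782149 in GRCm38.p6) senses iron and directs the iron regulatory protein IRP2 to degradation. It had 37.3, 33.6, 32.5 and 35.8 scaled TPM in hSKP2-KI samples and 28.8, 32.6, 30.1 and 31.7 in WT samples. The lowest hSKP2-KI value lay just under the highest WT value. The log2 fold change was 0.17 (95% interval 0.01 to 0.33, adjusted p = 0.146), and 0.42 (adjusted p = 0.0105) in the TPM as deposited. Fbxl21, known from the circadian clock, lay below the filter, at 0.430 to 0.928 scaled TPM. Fbxl4, whose loss causes mitochondrial DNA depletion, stood at -0.16 (95% interval -0.36 to 0.05, adjusted p = 0.317).

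A list of receptors for SNAIL, TWIST and related factors of epithelial-mesenchymal transition held 4 members and may be incomplete. The 4 had log2 fold changes from -0.15 to 0.01. None was called in limma, beside 11.1% of all tested genes. In limma 0 of 4 had an unadjusted p under 0.05, beside 16.2% of all tested genes higher and 11.1% lower. All 4 intervals lay within 0.5 of 0, beside 68.2% of all tested genes. A list of 4 genes is too short to stand apart from these shares. Fbxw11, the beta-TrCP paralog that also acts on beta-catenin and IκB, had 27.9, 27.1, 29.8 and 29.6 scaled TPM in hSKP2-KI samples against 30.7, 31.5, 31.3 and 30.4 in WT samples. The values were separate by a small margin, with a log2 fold change of -0.11 (95% interval -0.25 to 0.02, adjusted p = 0.262). Fbxo45 stood at -0.15 (95% interval -0.39 to 0.08, adjusted p = 0.384). Of 5 receptors listed as known from neurons 4 were tested and none was called in limma, with 0 of 4 at an unadjusted p under 0.05. The same shares of all tested genes apply, and this list is as short. Among them Fbxl16 had a log2 fold change of 0.21 (95% interval -0.15 to 0.57, adjusted p = 0.435), and Fbxo41 lay at or under 0.126 scaled TPM in all samples.

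The Fbxw family holds a rodent expansion, a row of 15 genes on chromosome 9 (chr9:109139454-109790660 in GRCm38.p6) that is known from oocytes. In the ventral prostate 8 of the 15 were listed at 0 in all 8 samples, 6 had values under the filter and 1, Fbxw27, passed it. Because these genes are copies of each other, reads can be assigned to the wrong one. The sequences of Fbxw27, Fbxw26 and Fbxw18, the last 3 in chromosomal order, show how alike the copies are. A stretch of 90 coding bases near the start of each is given (GENCODE M21, GRCm38, spliced coding sequence, bases 29 to 118 in Fbxw27 and Fbxw26 and 38 to 127 in Fbxw18), in which capitals mark a base that differs from Fbxw27.
Fbxw27: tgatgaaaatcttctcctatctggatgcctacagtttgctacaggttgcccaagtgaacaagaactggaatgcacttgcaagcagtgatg
Fbxw26: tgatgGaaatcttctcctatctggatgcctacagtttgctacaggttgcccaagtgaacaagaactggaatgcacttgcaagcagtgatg
Fbxw18: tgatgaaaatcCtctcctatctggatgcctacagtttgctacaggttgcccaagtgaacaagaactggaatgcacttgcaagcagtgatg
Over the whole coding sequence the copies are less alike, with 83.6% of the aligned bases of Fbxw26 and 84.5% of those of Fbxw18 the same as in Fbxw27. Of all 50-base stretches in the transcripts of Fbxw27, 8.3% also occur in a transcript of another gene, so most of its sequence can be told from that of the other copies.

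Fbxw27 (Entrez 76998) had 6.64, 1.99, 6.73 and 1.91 scaled TPM in WT replicates 1 to 4 and 2.08, 1.86, 1.76 and 0.934 in the hSKP2-KI samples. WT replicates 1 and 3 were high, and the other 2 WT samples lay among the hSKP2-KI samples. Its log2 fold change was -0.86 (95% interval -1.62 to -0.10, standard error 0.34, adjusted p = 0.133), which missed the threshold. The same 2 WT mice had the highest values of Fbxw26, at 0.430 and 1.04 scaled TPM against at most 0.130 in the other samples. They also had the highest values of Fbxw18, at 0.684 and 0.299 against at most 0.142. These levels are close to 0, and how reads on shared sequence were assigned is not given in the sources used here.

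**Figure D4:**
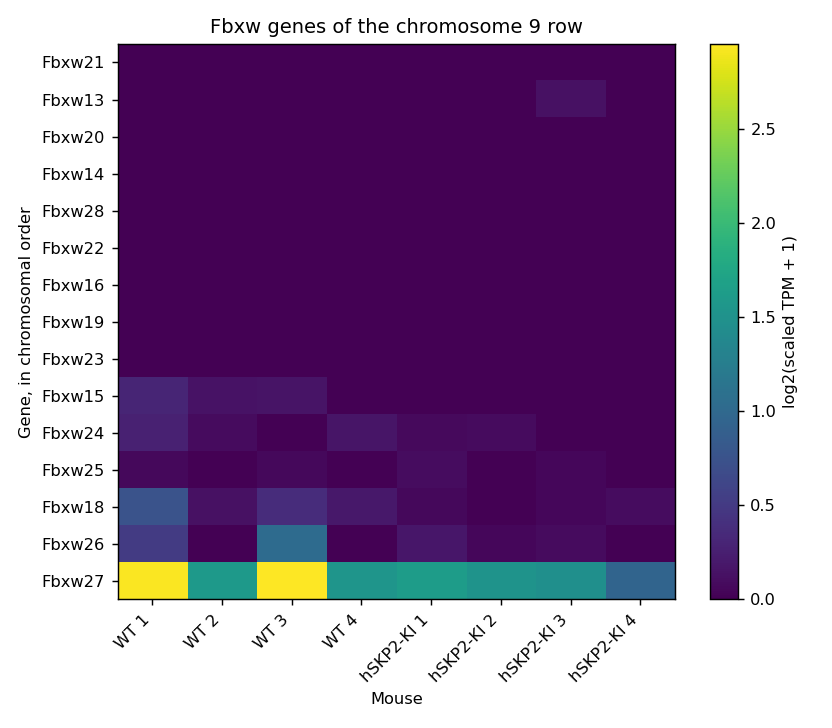
Log2(scaled TPM + 1) of the 15 Fbxw genes of chromosome 9, in chromosomal order, in 4 WT and 4 hSKP2-KI mice. Fbxw27 is the member with clear values in all samples, brightest in WT replicates 1 and 3, where Fbxw26 and Fbxw18 are also highest.

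The promoters of Fbxw26 and Fbxw18 carry the same duplication, and are shown because their genes had their highest values in the same 2 mice. The 250 bases before each start (RefSeq, GRCm38.p6, minus strand) cover chr9:109746090-109746339 for Fbxw26 and chr9:109702701-109702950 for Fbxw18. Capitals mark bases that differ or that have no partner in the alignment of the pair, in which 222 of 232 aligned bases (95.7%) are the same.
Fbxw26: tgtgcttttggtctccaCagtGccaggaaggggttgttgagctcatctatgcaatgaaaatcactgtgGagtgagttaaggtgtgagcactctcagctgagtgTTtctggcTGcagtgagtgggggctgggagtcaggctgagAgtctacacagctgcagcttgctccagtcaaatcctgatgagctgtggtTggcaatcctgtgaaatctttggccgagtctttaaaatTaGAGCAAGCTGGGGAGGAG
Fbxw18: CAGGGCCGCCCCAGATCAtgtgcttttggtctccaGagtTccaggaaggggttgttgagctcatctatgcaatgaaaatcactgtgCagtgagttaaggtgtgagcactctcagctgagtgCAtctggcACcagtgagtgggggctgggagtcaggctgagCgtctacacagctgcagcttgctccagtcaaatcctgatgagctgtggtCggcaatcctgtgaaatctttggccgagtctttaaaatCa

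Fbxw17 (Entrez 109082, chr13:50417835-50433781 in GRCm38.p6) lies apart from the row. It had 6.48, 6.44, 5.11 and 4.22 scaled TPM in hSKP2-KI samples and 5.24, 2.52, 2.97 and 4.48 in WT samples. Replicates 1 and 2 of hSKP2-KI exceeded all WT samples and the other 2 lay among them. Its log2 fold change, the highest of the 53 members, was 0.47 (95% interval 0.04 to 0.91, adjusted p = 0.144), and 0.68 (adjusted p = 0.0156) in the TPM as deposited.

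The choice of scaling decided how many members were called. In the TPM as deposited, 10 members were called higher and 0 lower, where 32.7% of all tested genes were called higher and 1.23% lower. The members were Fbxl5, Fbxl22, Fbxw17, Fbxw2, Fbxo7, Fbxo27, Fbxo18, Fbxl7, Fbxo31 and Fbxo22, with log2 fold changes from 0.24 for Fbxo22 to 0.71 for Fbxl22. All 10 were higher without overlap as deposited, as were 16 of the 53 members and 34% of all tested genes. No member was lower without overlap as deposited, beside 1.03% of all tested genes. The median log2 fold change of the members was 0.21, beside 0.23 for all tested genes, so the members shared the general shift and their share of calls was below that of all genes. After median-ratio scaling the 10 had log2 fold changes from 0.00 for Fbxo22 to 0.47 for Fbxw17 and adjusted p-values from 0.136 to 0.997.

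**Figure D5:**
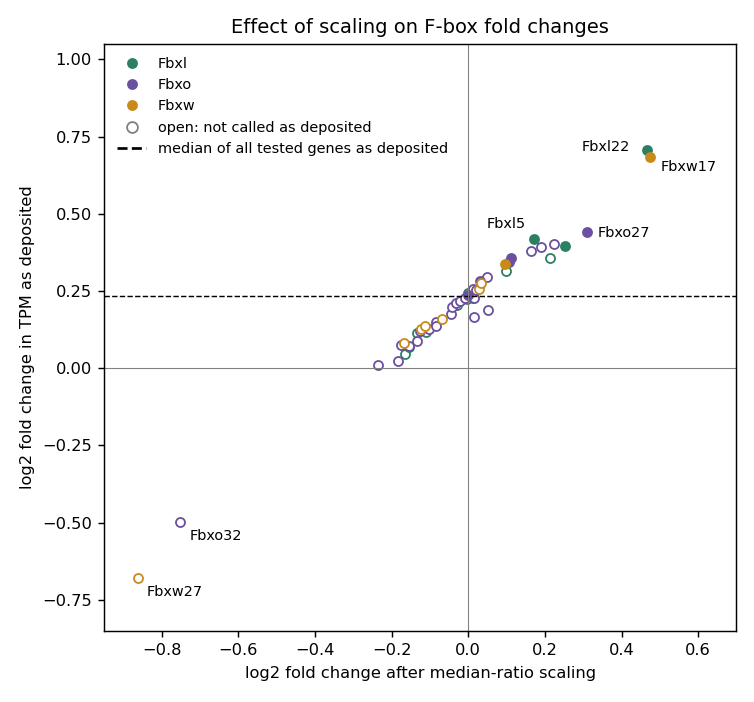
Log2 fold change of the tested members shown after median-ratio scaling (horizontal) and in the TPM as deposited (vertical), coloured by family, with filled points for the 10 members called as deposited. The dashed line is the median of all tested genes as deposited, 0.23, near which members at 0 after scaling lie, and Fbxo32 and Fbxw27 lie below 0 on both axes.

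The SCF core, the NEDD8 cycle, the COP9 signalosome and the ubiquitin-conjugating enzymes were covered by 35 listed genes. Of these, 1 was called lower and 0 higher in limma, beside 11.1% of all tested genes in either direction. At an unadjusted p under 0.05 in limma, 0 were higher and 2 lower, beside 16.2% and 11.1% of all tested genes. In the TPM as deposited 12 were called higher and 1 lower, beside 33.9% of all tested genes in either direction. After scaling the median log2 fold change was -0.02, and 34 of 35 intervals lay within 0.5 of 0, beside 68.2% of all tested genes. Skp1a had 212 ± 11.4 scaled TPM in hSKP2-KI and 200.3 ± 23.9 in WT prostates (SD, n = 4 each), a log2 fold change of 0.09 (95% interval -0.11 to 0.29, adjusted p = 0.569). Cul1 stood at 0.02 (95% interval -0.14 to 0.17, adjusted p = 0.907) and Rbx1 at -0.02 (95% interval -0.23 to 0.20, adjusted p = 0.93). Dcun1d1, which promotes the attachment of NEDD8 to cullins, was the gene called. It had 6.46, 6.60, 7.77 and 6.47 scaled TPM in hSKP2-KI samples and 10.8, 9.87, 11.3 and 11.2 in WT samples. The groups were well separate, and the log2 fold change was -0.59 (adjusted p = 0.00421, standard error 0.08), or -0.36 (adjusted p = 0.0193) in the TPM as deposited. Of the F-box genes with other names, Btrc, Kdm2a and Kdm2b were tested and none was called in limma, beside 11.1% of all tested genes. At an unadjusted p under 0.05 in limma, 0 were higher and 1 lower, beside 16.2% and 11.1% of all tested genes. Kdm2b, a histone demethylase, had a log2 fold change of -0.23 (95% interval -0.42 to -0.04, adjusted p = 0.113). Btrc, the paralog of Fbxw11, stood at -0.16 (95% interval -0.33 to 0.02, adjusted p = 0.246). Ccnf lay below the filter, at 0.302 to 0.925 scaled TPM.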

How the data were processed

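Per the authors, total RNA of integrity number 8 to 10 was poly-A selected and sequenced with paired ends, and CLC software was used for trimming and for mapping to mouse. The submitters' processing notes name mm10 and GRCm38. The version, annotation and counting options are not given in the sources used here. The authors deposited one table of TPM for 36333 genes, which were matched by Entrez identifier to RefSeq (GRCm38.p6) for positions (79 of 79 members). TPM holds no read counts, so no interval from counts was possible.

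TPM was divided by median-ratio factors from the 11879 genes at 1 TPM or more in all 8 samples. log2(scaled TPM + 1) was fitted with limma 3.58.1 (R 4.3.3) by genotype, with a mean-variance trend, for genes whose deposited TPM reached 1 in 4 or more samples. Figures were drawn with matplotlib 3.10.9. The fit was tested on simulated data. The members and lists were chosen with earlier results of these data known. Genes named were those called under either scaling, the 5 most abundant members, those with the smallest p in lists of roles, and those below the filter that reached a TPM of 1. Fbxw27, Fbxw26, Fbxw18, Fbxo5, Fbxw2, Fbxo40, Fbxl21 and Fbxo41 were named after their values were seen. One member is counted but its values are not reported here. Replicate numbers were checked for pairing. The alternatives were other scalings, pseudocounts and filters, a replicate block, sample weights, a robust fit and each sample left out.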

Additional observations from a re-analysis of the deposited data

Results flagged for a closer look

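In 44 groups of 4 mice (22 members, 2 genotypes), 4 had a sample set apart from the other 3 by more than the 95% critical value of Dixon's test, where chance gives about 1 group in 20. Fbxl22 in WT replicate 2 was at 10.5 scaled TPM against 14.6 to 14.7 in the other WT mice. Fbxo31 in WT replicate 1 was at 79.1 against 63.8 to 66.2. Fbxo4 in hSKP2-KI replicate 3 was at 4.72 against 5.74 to 5.90, and Fbxo27 in hSKP2-KI replicate 1 at 1.57 against 1.19 to 1.246.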

How the results depend on the processing

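With median-ratio scaling, 0 members were called higher, and 0 under the 16 alternatives other than the TPM as deposited, which gave 10 higher and 0 lower, and 13 SCF genes in place of 1. Sample weights gave 2 SCF genes. The single call lower, Fbxo32, held in 8 of 17 alternatives. It was 0 without a filter and 0 with the replicate block, and from 0 to 1 with each sample left out. The adjusted p of Fbxo32 ran from 0.00614 to 0.0814 over all alternatives, and its log2 fold change from -0.95 to -0.63 with each sample left out. In the TPM as deposited the sign turned from negative to positive for many members, among them Fbxo9 (0.076), Fbxw5 (0.13), Fbxw8 (0.081), Fbxw7 (0.16), Fbxo21 (0.012), Fbxo6 (0.12), Fbxl4 (0.069), Fbxw11 (0.14) and Fbxo45 (0.071), none of these called, and Fbxo22 (0.24), which was called as deposited. Fbxo5 was at -0.11 after quantile normalization, and with each sample left out Fbxo5 ran from -0.035 to 0.14 and Fbxo31 from -0.051 to 0.10. In the TPM as deposited every gene is moved by the share of the most abundant genes. Replicate numbers were not taken as pairs, since the deviations from the group means of same-numbered mice correlated at 0.23, -0.11, 0.17 and -0.01 across genes, and no call other than that of Fbxo32 changed with the replicate block among the members named. Over all genes, 1454 were called (958 higher, 496 lower), against 4433 (4272 higher, 161 lower) as deposited, 1317 (709 higher, 608 lower) after quantile normalization, 852 without a filter and 811 to 1303 with each sample left out. With a mean TPM of at least 5, the low members were not tested. The table gives no read counts per library.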

Other observations

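Several members share transcript sequence with other genes, which bears on their values. In GENCODE M21, 34 of 79 members have no 50-base stretch that occurs in a transcript of another gene, and 13 share over 10% of theirs. Fbxl12 shares 35% with Ubl5, Fbxw8 31.1% with Gm9754, Fbxl15 22.3% with Cuedc2 and Fbxw4 17.3% with Gm17018. Fbxw28 and Fbxw14 share 61.5% and 56.9% with each other, and both were listed at 0. Fbxl22 shares 6.9% with Herc1, Fbxo32 2.57% in all, and Fbxo9, Fbxw17, Fbxo27, Fbxo31 and Fbxw11 share none.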
